A study of Mus musculus with 51 samples.

Results

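The comparison described here sets hepatocytes that lack FoxA3 against hepatocytes with all FoxA genes intact, and asks what loss of FoxA3 alone is accompanied by in the adult liver cell. It rests on 7 of the 51 samples of the series, 4 RNA-seq libraries labelled FoxA3 null and 3 labelled FoxA1/A2 lox, chosen by label. Per the design text, the FoxA3 null mice carried floxed FoxA1 and FoxA2 alleles and a germline FoxA3 deletion, and received adeno-associated virus 8 with GFP in place of Cre at 8 weeks of age. The lox animals had floxed FoxA1 and FoxA2 and intact FoxA3, with no deletion, and the labels name no virus and no age for them. The 2 groups thus differ in FoxA3 and, as far as the labels go, in the GFP virus. The labels name no library batch, but some entries divide the 15 hepatocyte libraries by FoxA3 genotype: of 25 listed at 0 throughout one group, 12 were above 0 in all 7 libraries that carry FoxA3 and at 0 in all 8 that lack it. Any value above 0 was counted, down to 6.575e-76 for Snord35a in a library that carries FoxA3. All 12 were also at 0 in both control liver libraries, for which no FoxA deletion is named. The largest, AC113316.1, stood at 116631 to 246898 deposited RPKM in lox. Library batch, virus and FoxA3 genotype cannot be told apart. Nothing in the labels says that libraries of a group came from separate animals, and p-values measure the spread between these libraries. Further libraries used for reference were 4 FoxA triple null (the FoxA3-deficient mice given the virus with Cre behind the hepatocyte-specific Tbg promoter, also at 8 weeks), 4 FoxA1/A2 Cre alfp (FoxA1 and FoxA2 deleted, FoxA3 intact) and 2 HNF4a control liver libraries, for which no FoxA deletion is named.

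FoxA proteins are winged-helix transcription factors that bind nucleosomal DNA and help open enhancers when the liver forms. FoxA1 and FoxA2 are needed for liver specification, and FoxA3 appears later in development and is the most abundant FoxA transcript of the adult liver. The family members bind closely related sequences, and FoxA3-deficient mice are viable, with reported changes in glucose handling genes.

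Values are the authors' RPKM (reads per kilobase of gene, scaled to the reads mapped), multiplied per library so that the median over tested genes was equal in all libraries. All levels below are on this scale and in the order of replicates 1 to 4 (FoxA3 null) or 1 to 3 (lox). Differences are FoxA3 null minus lox on the log2(RPKM + 1) scale, which understates changes of low genes. A gene was called at a Benjamini-Hochberg adjusted p under 0.05 (limma) with an absolute log2 difference of at least 1. Absolute depth is unknown. Relative to lox replicate 1, depth read from low values was 1 to 1.67 in lox and 0.916 to 1.08 in FoxA3 null. Mitochondrially encoded genes took 11.8 to 13.8% of all RPKM in lox and 6.81 to 10.3% in FoxA3 null. Clock genes parted the lox libraries among themselves. Dbp, an output gene of the circadian clock, stood at 1.75, 6.52 and 181 in lox and at 144, 201, 49.4 and 119.5 in FoxA3 null, while Arntl, a core activator of the clock, stood at 8.88, 6.01 and 0.339 in lox and 0.142, 0.147, 2.17 and 0.434 in FoxA3 null. Lox replicates 1 and 2 thus carried low Dbp with high Arntl, and lox replicate 3 resembled the FoxA3 null libraries. Results were therefore also computed with lox replicate 3 as the only lox library, an alternative added after the data were seen, in which the lone library is assumed to vary like the others.

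The targeted gene was examined first. Foxa3 was 30.6, 21 and 27.1 in lox and 0.00622, 0, 0.0109 and 0 in FoxA3 null, so that every library matched its label. Foxa3 was 36.8, 31.9, 32.9 and 28.3 in Cre alfp, 0.00659, 0, 0 and 0.011 in the triple null and 37.4 and 32.6 in HNF4a control liver. Foxa1 was 7.5, 9.05 and 4.86 in lox and 8.95, 5.97, 9.91 and 7.74 in FoxA3 null, and the groups overlapped (log2 difference 0.18, SE 0.22, limma adjusted p 0.561; exact two-sided permutation p 0.457, where 0.0286 is the smallest that 4 against 3 libraries can give). Foxa2 was 7.08, 21.2 and 11.7 in lox and 10.7, 10.8, 20.1 and 11.3 in FoxA3 null, again with overlap (log2 difference 0.07, SE 0.35, limma adjusted p 0.903; exact permutation p 1). FoxA3 null replicate 3 and lox replicate 2 held the highest Foxa2 levels. Per length, Foxa3 was the most abundant of the 3 FoxA transcripts in lox replicates 1 and 3, and about level with Foxa2 in lox replicate 2. Neither Foxa1 nor Foxa2 passed the test, with log2 differences that stayed between -0.04 and 0.63 for Foxa1 and between -0.29 and 0.44 for Foxa2 over the alternatives tried. Hnf4a, the nuclear receptor that works beside FoxA at liver enhancers, was 128, 86.8 and 105 in lox and 187, 152, 114 and 152 in FoxA3 null (log2 difference 0.50, SE 0.20, limma adjusted p 0.1; exact permutation p 0.0857), and 1 lox library lay inside the FoxA3 null range.

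Of 10757 genes tested, 739 were called (6.87%), 266 higher (2.47%) and 473 lower (4.4%) in FoxA3 null. Without scaling 735 were called, but 382 higher and 353 lower, since the median of all genes then sat at 0.12 on the log2 scale and at 0.01 with scaling. In 4228 genes (39.3%) the libraries of the groups did not overlap. Leaving out lox replicate 1 left 388 calls and leaving out lox replicate 2 left 398, while leaving out FoxA3 null replicate 3 gave 1021. Of the 739 genes, 294 (39.8%) were called in each of the 7 fits that leave out 1 library, and 66 of these also with lox replicate 3 as the only lox library, a fit with 87 calls in all. Of the 739, 92 reached 1 RPKM in 1 of the groups only, so that the filter set their direction, and their calls support nothing. Among genes that reached it in both groups 647 of 10475 were called (6.18%). Of the called genes given below, Foxa3, Enho, Asns, Sox9, Slc1a5, Gm13611, Idi1, Sult1e1, Abcd2 and Il1rn reached it in 1 group only. In bulk libraries fewer cells of a type and less RNA per cell cannot be told apart. Of 79 named genes found in RefSeq 29 overlap another gene, and the sources used here do not say whether counting used strand. By RefSeq gene class, 475 of the called genes were protein-coding (4.97% of 9551 tested) and 169 were pseudogenes (27.3% of 619 tested). Long non-coding RNA genes were called in 12.9% of 209 tested. Here and below, counts by gene class include genes that reached 1 RPKM in 1 group only. They were not split by that and are a description.

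**Figure D1:**
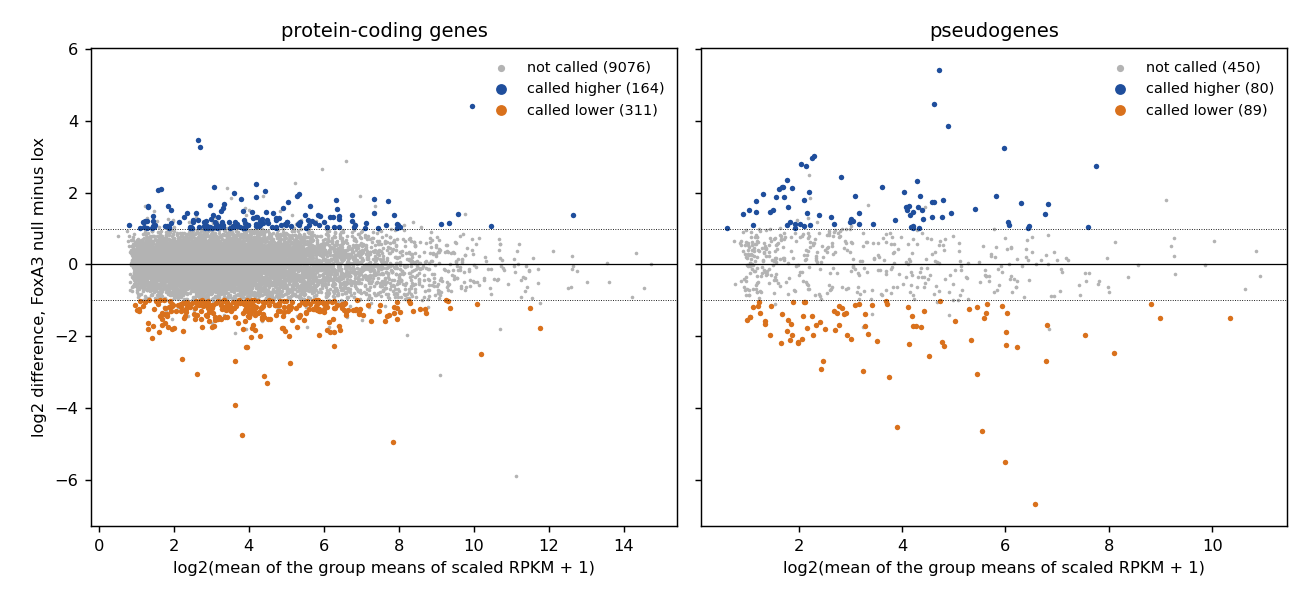
Log2 difference (FoxA3 null minus lox) against mean level for every tested protein-coding gene (left) and pseudogene (right), with called genes in colour and dotted lines at differences of 1. Pseudogenes were called in 27.3% and protein-coding genes in 4.97%, shares that include genes reaching 1 RPKM in 1 group only.

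The 11 genes described as highest among called genes without overlap served, among other roles, protein import, SUMO conjugation, conjugation and hydrolysis of xenobiotics, and lipid handling. Timm23, the channel subunit of the mitochondrial inner membrane import machinery, was 2.53, 1.95 and 1.76 in lox and 15.6, 13.8, 10.8 and 11.2 in FoxA3 null, with a difference of 2.16 (SE 0.16, limma adjusted p 0.000328). The lowest FoxA3 null library was over 4 times the highest lox library. Sae1, a subunit of the enzyme that activates SUMO, was 7.17, 7.49 and 7.3 in lox and 39.5, 36.2, 27.1 and 31.7 in FoxA3 null, a difference of 2.04 (SE 0.15, limma adjusted p 0.000251). The lox libraries agreed closely and none approached the FoxA3 null range. Apoa4, an apolipoprotein of triglyceride-rich particles, was 12.5, 15.5 and 17.8 in lox and 49.4, 62.5, 53.6 and 77.4 in FoxA3 null, a difference of 1.91 (SE 0.19, limma adjusted p 0.00108). Fads2, a desaturase of polyunsaturated fatty acid synthesis, was 29.7, 29.6 and 43 in lox and 158, 122, 74.2 and 145 in FoxA3 null, a difference of 1.81 (SE 0.27, limma adjusted p 0.00666). The groups came closest for Fads2 in the replicates numbered 3. Slc40a1, the iron exporter ferroportin, was 10.1, 14.2 and 18.5 in lox and 55.2, 41.1, 32.2 and 46.7 in FoxA3 null, a difference of 1.57 (SE 0.24, limma adjusted p 0.00666). Klhl21, a substrate adaptor of a ubiquitin ligase, was 4.21, 3.18 and 4.07 in lox and 20.3, 12.7, 8.17 and 14.9 in FoxA3 null, a difference of 1.58 (SE 0.27, limma adjusted p 0.00924). In each of these 6 genes all FoxA3 null libraries lay above all lox libraries, and the call stayed when any 1 library was left out. With lox replicate 3 as the only lox library Timm23 and Sae1 stayed called, and Apoa4, Fads2, Slc40a1 and Klhl21 did not (limma adjusted p 0.0777, 0.212, 0.182 and 0.213), with log2 differences of 1.69, 1.46, 1.18 and 1.51 in that fit.

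For the other 5, FoxA3 null replicate 1 was the highest library and replicate 3 the lowest of the group. Hsd17b6, an oxidoreductase of retinoids and steroids, was 97.9, 83.8 and 86.7 in lox and 458, 434, 197 and 219.9 in FoxA3 null, a difference of 1.76 (SE 0.32, limma adjusted p 0.0111), and stayed called without any 1 library, though not with lox replicate 3 alone (log2 difference 1.80, adjusted p 0.216). Ugt3a1, a UDP-glycosyltransferase, was 2.82, 4.22 and 3.59 in lox and 33.3, 17.7, 8.92 and 15.4 in FoxA3 null (log2 difference 2.0, SE 0.37, limma adjusted p 0.0119), and was not called without lox replicate 1 (adjusted p 0.0532). Ece1, the endothelin-converting enzyme, was 35.5, 41.4 and 40.1 in lox and 207, 109, 75.3 and 103 in FoxA3 null (log2 difference 1.54, SE 0.30, limma adjusted p 0.0143), and was not called without lox replicate 1 or 2 (adjusted p up to 0.0604). In these 3 genes the lox libraries lay close together and under every FoxA3 null library. Ces2c, a carboxylesterase, was 8.71, 23.6 and 13.3 in lox and 108, 63.7, 27.1 and 57.5 in FoxA3 null (log2 difference 1.96, SE 0.47, limma adjusted p 0.0243). Its call was lost without FoxA3 null replicate 2 or 4 or lox replicate 1 or 3 (adjusted p up to 0.0915), and FoxA3 null replicate 3 nearly met lox replicate 2. Eif4ebp2, a repressor of cap-dependent translation, was 3.8, 4.13 and 5.6 in lox and 42.5, 18.1, 10.3 and 13.8 in FoxA3 null (log2 difference 1.82, SE 0.42, limma adjusted p 0.0214), a call lost without FoxA3 null replicate 2 or lox replicate 1 or 2 (adjusted p up to 0.0802).

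Among the 12 genes named as lowest by the same rule were a liver-secreted peptide, an amino acid synthetase, a lysosomal enzyme, nuclear long non-coding RNAs and chromatin or transcription factors. Selenbp2, a selenium-binding protein with higher levels in male than in female liver, was 501, 680.3 and 165 in lox and 9.47, 9.23, 20.2 and 9.62 in FoxA3 null, a difference of -4.95 (SE 0.48, limma adjusted p 0.00108). All FoxA3 null libraries lay far under the lowest lox library, and lox replicate 3 was the lowest of its group. Its near-identical paralog Selenbp1, with which it shares reads, was 69.2, 79.8 and 122 in lox and 123, 113, 103 and 94.1 in FoxA3 null (log2 difference 0.30, SE 0.20, limma adjusted p 0.301). Enho, the precursor of the secreted peptide adropin, was 34.9, 21.4 and 10.5 in lox and 0.194, 0.566, 0.377 and 0.383 in FoxA3 null, a log2 difference of -3.93 (SE 0.34). Asns, asparagine synthetase, was 9.26, 9.6 and 11.3 in lox and 0.105, 0.272, 0.451 and 0.512 in FoxA3 null, a log2 difference of -3.06 (SE 0.15). Both genes stood under 1 RPKM in every FoxA3 null library and above 9 in every lox library, so they passed the minimum through lox alone and had to differ, and their calls are a description. They were also under 1 RPKM in every Cre alfp library, which carry Foxa3, at 0, 0.0268, 0.241 and 0.0648 for Enho and 0.0875, 0.314, 0.0624 and 0.39 for Asns. Idua, a lysosomal glycosaminoglycan hydrolase, was 18.2, 29.1 and 14.1 in lox and 2.32, 1.6, 2.73 and 2.27 in FoxA3 null, a difference of -2.68 (SE 0.24, limma adjusted p 0.00075); its span overlaps Slc26a1 (difference 0.35) and Dgkq (-0.19) in RefSeq, and the counting is not stated to use strand. Cbx8, a Polycomb chromobox protein, was 63, 46.8 and 62.9 in lox and 18.7, 5.13, 4.64 and 7.34 in FoxA3 null, a difference of -2.74 (SE 0.41, limma adjusted p 0.00644). Supv3l1, a helicase of mitochondrial RNA turnover, was 66.2, 52.6 and 38.4 in lox and 7.93, 14.5, 13.9 and 13.2 in FoxA3 null, a difference of -2.0 (SE 0.25, limma adjusted p 0.00324). The calls of Selenbp2, Idua, Cbx8 and Supv3l1 stayed when any 1 library was left out. Those of Enho and Asns were set by the filter, so nothing is read from their staying. With lox replicate 3 as the only lox library Cbx8 and Supv3l1 were not called, with log2 differences of -2.88 and -1.59.

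The remaining 6 rested on fewer libraries. Malat1, an abundant nuclear long non-coding RNA, was 1732, 2121 and 747 in lox and 129.6, 243, 443 and 289 in FoxA3 null (log2 difference -2.47, SE 0.47, limma adjusted p 0.013), and was not called without lox replicate 1 or 2 (adjusted p up to 0.0577). Neat1, the scaffold RNA of paraspeckles, was 182, 319 and 114 in lox and 11.6, 47.9, 83.8 and 58.8 in FoxA3 null (log2 difference -2.17, SE 0.64, limma adjusted p 0.044), a call lost without FoxA3 null replicate 2 or 4 or lox replicate 1 or 2 (adjusted p up to 0.148). In both RNAs FoxA3 null replicate 1 was the lowest library and replicate 3 the nearest to lox. Creld2, an endoplasmic reticulum stress gene, was 202, 152 and 37.9 in lox and 26.7, 16.8, 17.4 and 24.9 in FoxA3 null (log2 difference -2.28, SE 0.52, limma adjusted p 0.0214), with lox replicate 3 close to the FoxA3 null range. Its call was lost without FoxA3 null replicate 2 or lox replicate 1 or 2 (adjusted p up to 0.083). Zbtb20, a zinc finger repressor of fetal liver genes, was 22.7, 25.6 and 22.8 in lox and 0.556, 4.16, 9.66 and 6.49 in FoxA3 null (log2 difference -2.29, SE 0.57, limma adjusted p 0.0282), and was not called without FoxA3 null replicate 2 or any 1 lox library (adjusted p up to 0.0932). FoxA3 null replicate 1 held the least Zbtb20 and replicate 3 the most of its group. Nkap, a nuclear factor of transcription and splicing, was 32.1, 27.8 and 16.9 in lox and 2.54, 4.4, 11.7 and 5.31 in FoxA3 null (log2 difference -2.04, SE 0.41, limma adjusted p 0.0153), lost without lox replicate 1 or 2 (adjusted p up to 0.0639). Serpina1e, a member of the antitrypsin family whose copies share reads, was 293, 3350 and 2632 in lox and 219.8, 245, 228 and 269.9 in FoxA3 null (log2 difference -2.51, SE 0.75, limma adjusted p 0.0453). Lox replicate 1 lay just above the FoxA3 null range and the other lox libraries far above it. Among fits that left out 1 library, the call was kept only without lox replicate 1 (limma adjusted p otherwise up to 0.149).

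**Figure D2:**
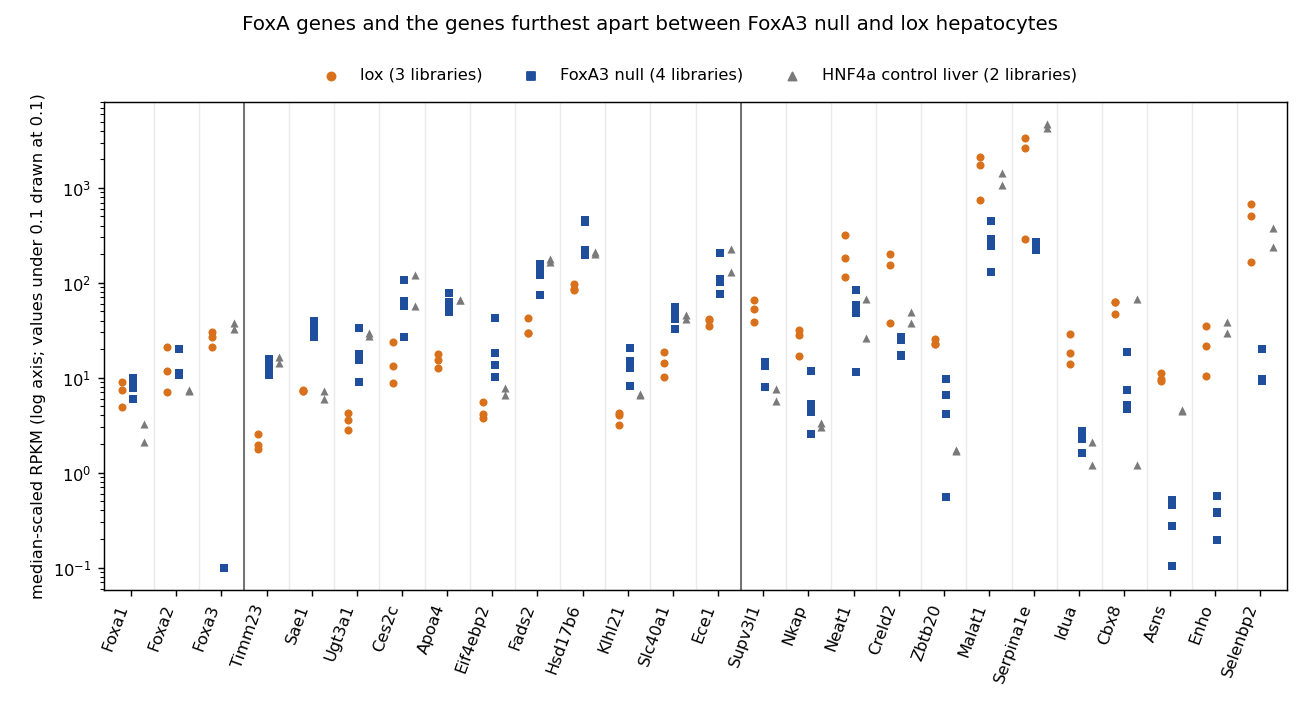
Median-scaled RPKM (log axis) of the FoxA genes, the 11 highest and the 12 lowest genes described in each lox library (circles), FoxA3 null library (squares) and HNF4a control liver library (triangles). Foxa3 is at or near 0 in all 4 FoxA3 null libraries, while Foxa1 and Foxa2 overlap between the groups.

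Classical FoxA target genes are those at which FoxA binding was described early. Of 13 tested, 1 was called (7.69%, beside 6.87% of all genes), in the lower direction, and the list's median difference was -0.37 beside 0.01 over all tested genes. Alb was 28290, 25980 and 25670 in lox and 30390, 27870, 21080 and 28350 in FoxA3 null (log2 difference 0.00, SE 0.17, limma adjusted p 0.991). Ttr, the thyroid hormone and retinol carrier, was 7187, 6991 and 7224 in lox and 3401, 4566, 5664 and 4754 in FoxA3 null (log2 difference -0.66, SE 0.18, limma adjusted p 0.0381), and Vtn, vitronectin, was 3740, 4031 and 3900 and 1303, 1912, 2784 and 2472 (log2 difference -0.93, SE 0.25, limma adjusted p 0.0351). Both passed on p without reaching the minimum difference, and their groups did not overlap. G6pc, the last enzyme of glucose release, was 342, 412 and 425 in lox and 86.8, 287, 335 and 283 in FoxA3 null (log2 difference -0.82, SE 0.44, limma adjusted p 0.191) and was not called.

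Among 23 liver transcription factors, 1 was called higher and 2 lower, with a median difference of -0.10. Cebpa, a leucine zipper factor of hepatocyte metabolism, was 103, 99.1 and 144 in lox and 252, 276, 211 and 197 in FoxA3 null (log2 difference 1.02, SE 0.18, limma adjusted p 0.0111). Onecut2, a cut homeodomain factor, was 15.2, 21.2 and 18.9 in lox and 6.89, 7.64, 9.54 and 9.6 in FoxA3 null (log2 difference -1.05, SE 0.17, limma adjusted p 0.00753). The differences of Cebpa and Onecut2 sit at the minimum. Cebpa was not called without FoxA3 null replicate 1 or 2 or lox replicate 1 or 2 (adjusted p up to 0.0532), and Onecut2 was not called without FoxA3 null replicate 1 or lox replicate 2, where its difference fell short of 1 in size. The 3 called of 23 compare with 6.87% of all genes.

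Lists of lipid metabolism held few calls, 5.26% of the genes that reached 1 RPKM in both groups for cholesterol synthesis, beside 6.18% of all such genes, and 6.67% of tested genes for fatty acid synthesis and 4.76% for fatty acid oxidation, beside 6.87% of all genes. Of 20 tested genes of cholesterol synthesis 2 were called, both higher, Idi1 among them, with a list median of 0.24. Idi1, the isopentenyl diphosphate isomerase, was 0.306, 0.461 and 0.438 in lox and 2.39, 2.4, 0.891 and 1.94 in FoxA3 null (log2 difference 1.01, SE 0.22), and passed the minimum through FoxA3 null alone. Of 15 fatty acid synthesis genes only Fads2 was called, with a list median of 0.49; Fasn, the synthase itself, was 106, 51.5 and 522 in lox and 59, 174, 83.3 and 108 in FoxA3 null (log2 difference -0.53, SE 0.72, limma adjusted p 0.607), its highest level being in lox replicate 3. Of 21 genes of fatty acid oxidation and ketone synthesis 1 was called, Cpt1a, and the list median was 0.51. Cpt1a, the carnitine transferase that admits fatty acids to mitochondria, was 23.9, 30.0 and 36.6 in lox and 91.5, 67, 49.1 and 78.2 in FoxA3 null, a difference of 1.20 (SE 0.23, limma adjusted p 0.0134). It was not called without lox replicate 1 or 2 (adjusted p up to 0.0591). In 8 of the 21 oxidation genes all FoxA3 null libraries lay above all lox libraries and in 2 below, where 39.3% of all tested genes had no overlap.

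Of 20 tested genes of bile acid synthesis and transport 2 were called, both higher, with a list median of 0.15. This is 10.0%, beside 6.87% of all genes. Slco1a1, an organic anion uptake transporter, was 69.9, 73 and 67.8 in lox and 198, 117, 186 and 118 in FoxA3 null, a difference of 1.09 (SE 0.22, limma adjusted p 0.0146). Abcc2, the canalicular exporter of conjugates, was 22.3, 21.4 and 46.3 in lox and 146, 80.6, 44.6 and 59.8 in FoxA3 null (log2 difference 1.38, SE 0.42, limma adjusted p 0.0485), and lox replicate 3 lay inside the FoxA3 null range. Slco1a1 was not called without FoxA3 null replicate 1 or 3 or lox replicate 1 or 2 (adjusted p up to 0.0595), nor Abcc2 without FoxA3 null replicate 1, 2 or 4 or lox replicate 1 or 2 (adjusted p up to 0.155). Cyp7a1, the rate-limiting enzyme of bile acid synthesis, was 5.6, 4.3 and 22 in lox and 14.2, 6.71, 3.58 and 8.35 in FoxA3 null (log2 difference -0.14, SE 0.56, limma adjusted p 0.865).

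Of 16 genes of glucose production and use only Pfkfb1 was called (6.25%, beside 6.87% of all genes), and it was lower. Pfkfb1, the liver enzyme that makes and breaks fructose bisphosphate as a signal for glycolysis, was 19.1, 18.9 and 26.1 in lox and 4.55, 5.01, 5.6 and 6.49 in FoxA3 null, a difference of -1.79 (SE 0.16, limma adjusted p 0.000806). The groups were far apart, and the gene was called under every alternative tried. Its span overlaps Apex2 (difference -0.86, not called). Pck1, the first committed enzyme of glucose synthesis, was 633, 854 and 1080 in lox and 1159, 1105, 1139 and 1679 in FoxA3 null (log2 difference 0.58, SE 0.23, limma adjusted p 0.093), and the list median was 0.02. Of 25 genes of the urea cycle and amino acid breakdown 2 were called (8.0%). Cth, which makes cysteine from cystathionine, was 678, 454 and 675 in lox and 168, 212, 308 and 266 in FoxA3 null (log2 difference -1.34, SE 0.24, limma adjusted p 0.0111), a call lost without lox replicate 1 (adjusted p 0.0522). Tdo2, which opens the tryptophan ring, was 369, 360.2 and 419 in lox and 1388, 917, 532 and 774 in FoxA3 null (log2 difference 1.15, SE 0.29, limma adjusted p 0.0288), a call lost without FoxA3 null replicate 1, 2 or 4 or lox replicate 1 or 2 (adjusted p up to 0.0974).

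Acute phase proteins are those whose secretion by the liver changes in inflammation. Of 21 tested, 5 were called (without Il1rn 20.0%, beside 6.18% of all genes that reached 1 RPKM in both groups), 4 lower (Hamp, Saa2, Itih3 and Fgl1) and 1 higher (Il1rn), and the list median was -0.46. The summed level of the list was 18500 to 23100 in lox and 6800 to 13300 in FoxA3 null. Itih3, a heavy chain of the inter-alpha inhibitors, was 579, 665 and 367 in lox and 165, 249, 227 and 238 in FoxA3 null (log2 difference -1.26, SE 0.24, limma adjusted p 0.0123), not called without lox replicate 1 or 2 (adjusted p up to 0.0565). Fgl1, a fibrinogen-like hepatokine, was 736, 966 and 1037 in lox and 204, 569, 395 and 481 in FoxA3 null (log2 difference -1.23, SE 0.34, limma adjusted p 0.0356). Hamp, the iron hormone hepcidin, was 4771, 2352 and 9066 in lox and 708, 2294, 1925 and 1138 in FoxA3 null (log2 difference -1.76, SE 0.53, limma adjusted p 0.0459), and lox replicate 2 lay next to FoxA3 null replicate 2. Saa2, a serum amyloid protein whose family members share reads, was 135, 164 and 113 in lox and 27.4, 53.2, 65.3 and 100 in FoxA3 null (log2 difference -1.27, SE 0.38, limma adjusted p 0.0472). Each of the last 3 lost its call without 5 or 6 of the 7 libraries (adjusted p up to 0.113 for Fgl1, 0.126 for Hamp and 0.149 for Saa2), and with lox replicate 3 alone no acute phase gene was called lower. The differences in that fit were -2.72 for Hamp, -1.43 for Fgl1, -1.01 for Saa2 and -0.75 for Itih3. Il1rn, the interleukin receptor antagonist, was 0.259, 0.739 and 0.155 in lox and 1.32, 2.96, 1.81 and 2.59 in FoxA3 null (log2 difference 1.19, SE 0.23), and passed the minimum through FoxA3 null alone.

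Of 29 coagulation and complement genes 2 were called, C9 and C4b, both lower, with a list median of -0.02. This is 6.9%, beside 6.87% of all genes. C9, the pore-forming component, was 1701, 1691 and 1020 in lox and 569, 584, 898 and 658 in FoxA3 null (log2 difference -1.10, SE 0.24, limma adjusted p 0.0185), lost without FoxA3 null replicate 2 or lox replicate 1 or 2 (adjusted p up to 0.0768). C4b was 805, 950.5 and 779 in lox and 267, 441, 559.7 and 442 in FoxA3 null (log2 difference -1.02, SE 0.24, limma adjusted p 0.0234), a call kept only without FoxA3 null replicate 3 or lox replicate 3 (adjusted p otherwise up to 0.0901). Of 21 apolipoprotein and lipid transport genes, Apoa4 was called higher and Apoc4 lower (9.52%). Apoc4 was 4272, 4409 and 3354 in lox and 1270, 1741, 2464 and 1591 in FoxA3 null (log2 difference -1.21, SE 0.23, limma adjusted p 0.013), and was not called without lox replicate 1 or 2 (adjusted p up to 0.0587).

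Among sex-biased liver genes that reached 1 RPKM in both groups, 4 of 24 male-biased (16.7%) and 1 of 7 female-biased genes (14.3%) were called, beside 6.18% of all such genes. All libraries expressed Y-linked genes. Of 24 male-biased genes 2 were called lower (Selenbp2 and Serpina1e) and 2 higher (Slco1a1 and Cyp2u1), and 1 female-biased gene was called lower. Another 2 female-biased genes, Sult1e1 and Abcd2, were higher but reached 1 RPKM in FoxA3 null alone. Sult1e1, the estrogen sulfotransferase, was 0.168, 0.113 and 0.161 in lox and 2.25, 3.4, 6.22 and 4.74 in FoxA3 null, a log2 difference of 2.10 (SE 0.26). All FoxA3 null libraries were above 2 RPKM and all lox libraries under 0.2, so Sult1e1 passed the minimum through FoxA3 null alone and had to differ. With a pseudocount of 5 its difference was 0.81, under the minimum. Abcd2, a peroxisomal transporter of very long fatty acids, was 0.409, 0.419 and 0.191 in lox and 2.13, 2.23, 0.651 and 4 in FoxA3 null (log2 difference 1.18, SE 0.33), and also passed through FoxA3 null alone. Cyp2u1 was the only called gene of 36 cytochrome P450 genes and regulators of families 1 to 4 (2.78%), at 3.65, 2.4 and 4.58 in lox and 11.5, 10.8, 8.13 and 4.67 in FoxA3 null (log2 difference 1.07, SE 0.30, limma adjusted p 0.0375). It was not called without FoxA3 null replicate 1 or 2 or lox replicate 1 or 2 (adjusted p up to 0.13), and its FoxA3 null replicate 4 lay next to lox replicate 3. The male-biased steroid gene Hsd3b5 was 99.7, 134 and 131 in lox and 124, 127, 178 and 119.6 in FoxA3 null (log2 difference 0.17, SE 0.18, limma adjusted p 0.516).

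Genes of endoplasmic reticulum and integrated stress held 9 calls among 20 tested. Of the 18 that reached 1 RPKM in both groups 8 were called (44.4%, beside 6.18% of all such genes). Of the 9 calls 8 were lower, Asns among them, and 1 higher, and the list median was -0.78. Besides Asns and Creld2, the lower genes were folding and quality control proteins: Sdf2l1, Manf, Dnajb11, Hsp90b1, Pdia4 and Calr. The list summed to 2490 to 4410 in lox and 1760 to 2000 in FoxA3 null. In libraries that carry Foxa3 it summed to 1500 to 1930 in Cre alfp and to 2370 and 2220 in control liver. Creld2 was 9.6, 14.8, 18.65 and 12.1 in Cre alfp, and Manf was 68.7, 102, 90.9 and 102. Sdf2l1, an endoplasmic reticulum chaperone cofactor, was 111, 135 and 36.6 in lox and 19.2, 16.1, 29.4 and 18.9 in FoxA3 null (log2 difference -1.96, SE 0.43, limma adjusted p 0.0187). Manf, a secreted stress-induced protein, was 337, 378 and 199 in lox and 112, 126, 87.9 and 106 in FoxA3 null (log2 difference -1.45, SE 0.24, limma adjusted p 0.0082). Dnajb11, an Hsp40-type cochaperone, was 204, 202 and 121 in lox and 48.4, 67.1, 78.8 and 74 in FoxA3 null (log2 difference -1.36, SE 0.24, limma adjusted p 0.0106). Hspa5, the main luminal chaperone, was 946, 615 and 298 in lox and 315, 255, 171 and 253 in FoxA3 null (log2 difference -1.20, SE 0.38, limma adjusted p 0.0537) and was not called. Lox replicate 3 was the lowest lox library in Creld2, Sdf2l1, Manf, Dnajb11 and Hspa5, and in Creld2 and Sdf2l1 it lay close to the FoxA3 null range. Sdf2l1 was not called without FoxA3 null replicate 2 or lox replicate 1 or 2 (adjusted p up to 0.0765), whereas Manf was. With lox replicate 3 as the only lox library Creld2, Sdf2l1 and Manf were not called, with log2 differences of -0.82, -0.81 and -0.89. Asns differed from the chaperones in that lox replicate 3 held its highest level. Trib3, a pseudokinase of the integrated stress response, was the higher gene, at 1.99, 3.56 and 1.5 in lox and 7.39, 9.04, 7.05 and 7.89 in FoxA3 null (log2 difference 1.44, SE 0.21, limma adjusted p 0.00577). Levels of Atf4, the factor above both Asns and Trib3, were 126, 108 and 136 in lox and 57.8, 84.3, 112 and 86.2 in FoxA3 null (log2 difference -0.56, SE 0.22, limma adjusted p 0.0912).

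Of the other response lists, 4 had 6.25% or fewer of their genes called and the cell cycle list 14.3%, beside 6.87% of all genes. Of 16 circadian clock genes 1 was called, Nfil3, a repressor that opposes Dbp, at 40.6, 31 and 28.8 in lox and 7.73, 10.2, 21.1 and 8.26 in FoxA3 null (log2 difference -1.52, SE 0.32, limma adjusted p 0.0171). Its call was lost without FoxA3 null replicate 2 or lox replicate 1 or 2 (adjusted p up to 0.0695). Of 23 immediate early and isolation stress genes none was called at an adjusted p under 0.05 by limma. In 2 of them the groups did not overlap, where 39.3% of all tested genes had no overlap. Of 21 interferon-stimulated genes 1 was called, Stat2, a component of the interferon signal, at 37, 32 and 24.1 in lox and 10.3, 10.8, 16.6 and 17.4 in FoxA3 null (log2 difference -1.13, SE 0.23, limma adjusted p 0.016), lost without lox replicate 1 or 2 (adjusted p up to 0.0665). Of 7 tested cell cycle genes 1 was called, Ccnd1, a cyclin of cell cycle entry, at 6.95, 4.3 and 1.06 in lox and 13.4, 21.7, 6.22 and 16.1 in FoxA3 null (log2 difference 1.68, SE 0.51, limma adjusted p 0.049). The groups overlapped for Ccnd1, and its call was kept only without FoxA3 null replicate 3 (adjusted p otherwise up to 0.116). None of 18 oxidative stress genes was called.

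Mitochondrially encoded genes were lower in FoxA3 null. Of 9 tested, 8 were called lower (88.9%, beside 6.87% of all genes called), all 9 had no overlap between the groups (39.3% of all genes), and the list median was -1.31. These genes are transcribed as long units from both strands of the mitochondrial genome and processed into single RNAs, and a few of them make up a large share of liver RNA. The summed level was 127000 to 180000 in lox and 45300 to 87800 in FoxA3 null. It was 61300 to 171000 in the triple null, which also lacks FoxA3, and 141000 to 181000 in Cre alfp, with overlap between these 2 groups. mt-Nd6 was 16760, 18730 and 13470 in lox and 3926, 5531, 8471 and 5316 in FoxA3 null (log2 difference -1.53, SE 0.26, limma adjusted p 0.00955). mt-Nd4 was 9377, 9958 and 7184 in lox and 2123, 3048, 5064 and 3669 in FoxA3 null (log2 difference -1.40, SE 0.29, limma adjusted p 0.0158). The ribosomal RNA mt-Rnr1 was 11280, 11880 and 8032 in lox and 2570, 3403, 5638 and 3990 in FoxA3 null (log2 difference -1.45, SE 0.28, limma adjusted p 0.013), and mt-Rnr2 was 12760, 12470 and 10570 and 3130, 4853, 7197 and 4553 (log2 difference -1.33, SE 0.26, limma adjusted p 0.0144). In each of these 4, FoxA3 null replicate 1 was the lowest library and replicate 3 the highest of its group. mt-Co1, an oxidase subunit, was 22570, 28210 and 20090 in lox and 12220, 15840, 16890 and 14740 in FoxA3 null (log2 difference -0.66, SE 0.18, limma adjusted p 0.0368), under the minimum difference. The list's 8 lower calls fell to 2 without lox replicate 1, to 1 without lox replicate 2 and to 5 without FoxA3 null replicate 2. Without any other library there were 7 or 8. Without lox replicate 1 or 2, mt-Nd4, mt-Rnr1 and mt-Rnr2 lost their calls (limma adjusted p up to 0.0663), mt-Nd4 also without FoxA3 null replicate 2, and mt-Nd6 kept its own. With lox replicate 3 as the only lox library none of the 9 was called, while the differences of the 4 named genes were -1.27 to -1.10. The calls also ended under quantile normalization, where the 4 named differences were -0.96 to -0.79, and with no minimum RPKM (limma adjusted p 0.057 to 0.0758 for those 4). Under the replicate block none of the 9 was called.

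Nuclear-encoded subunits of oxidative phosphorylation build the respiratory chain together with the mitochondrial products. Of 75 tested, 4 were called lower and 1 higher, 42 lay lower without overlap and 7 higher, and the list median was -0.39. The share called was 6.67%, beside 6.87% of all genes, and 39.3% of all genes had no overlap. Ndufb4, a subunit of the first respiratory complex, was 53.2, 48 and 42.5 in lox and 8.12, 12.2, 18.8 and 12.8 in FoxA3 null (log2 difference -1.86, SE 0.24, limma adjusted p 0.00394), and kept its call without any 1 library but not with lox replicate 3 alone (log2 difference -1.70, adjusted p 0.16). Ndufc1 was 248, 238 and 190.1 in lox and 48.2, 57.1, 118 and 91 in FoxA3 null (log2 difference -1.59, SE 0.30, limma adjusted p 0.013), and Ndufa5 was 460.5, 475 and 464 and 124, 192, 272 and 202 (log2 difference -1.29, SE 0.24, limma adjusted p 0.0123). Sdha, the flavoprotein of succinate dehydrogenase, went the other way, at 134, 91.8 and 162 in lox and 459, 359, 241 and 296 in FoxA3 null (log2 difference 1.38, SE 0.26, limma adjusted p 0.013). Without lox replicate 1 or 2, Ndufc1, Ndufa5 and Sdha were not called (adjusted p up to 0.0575). Total deposited RPKM moved with the groups, at 1041571 to 1209674 in lox and 726455 to 873268 in FoxA3 null. Part of that gap is AC113316.1, listed at 0 in every FoxA3 null library, without which lox totals were 924940 to 965980. The 10 highest genes then took 32.2 to 34.1% in lox and 26.8 to 30.8% in FoxA3 null, and mitochondrially encoded genes 13.3 to 16.9% and 6.81 to 10.3%. The part of these shifts in the differences was not tested.

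**Figure D3:**
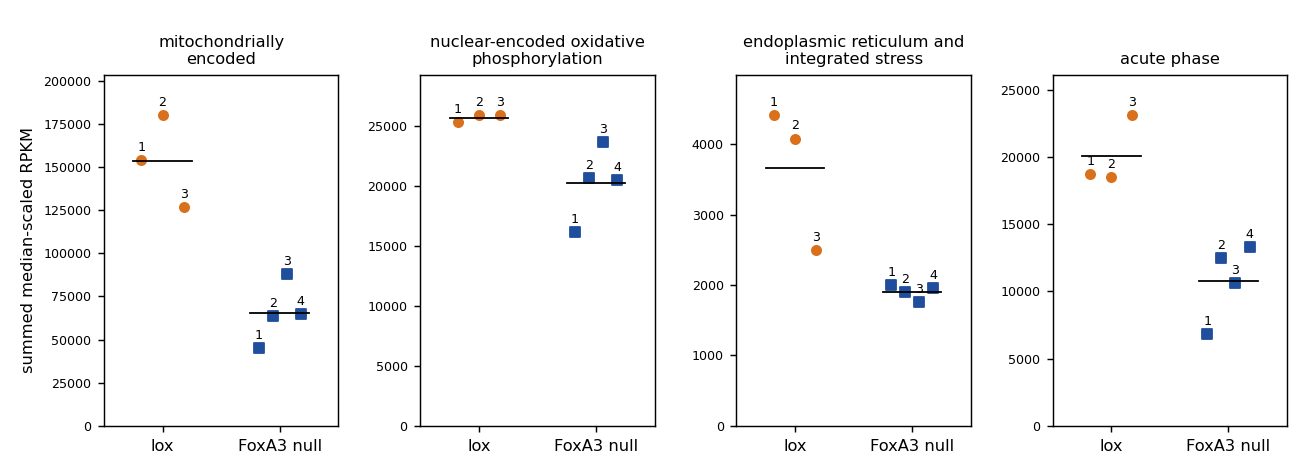
Summed median-scaled RPKM of 4 gene lists in each library, with replicate numbers beside the points and lines at group means. Mitochondrially encoded genes were 127000 to 180000 in lox and 45300 to 87800 in FoxA3 null, and in the stress list lox replicate 3 lay nearest to FoxA3 null.

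**Figure D4:**
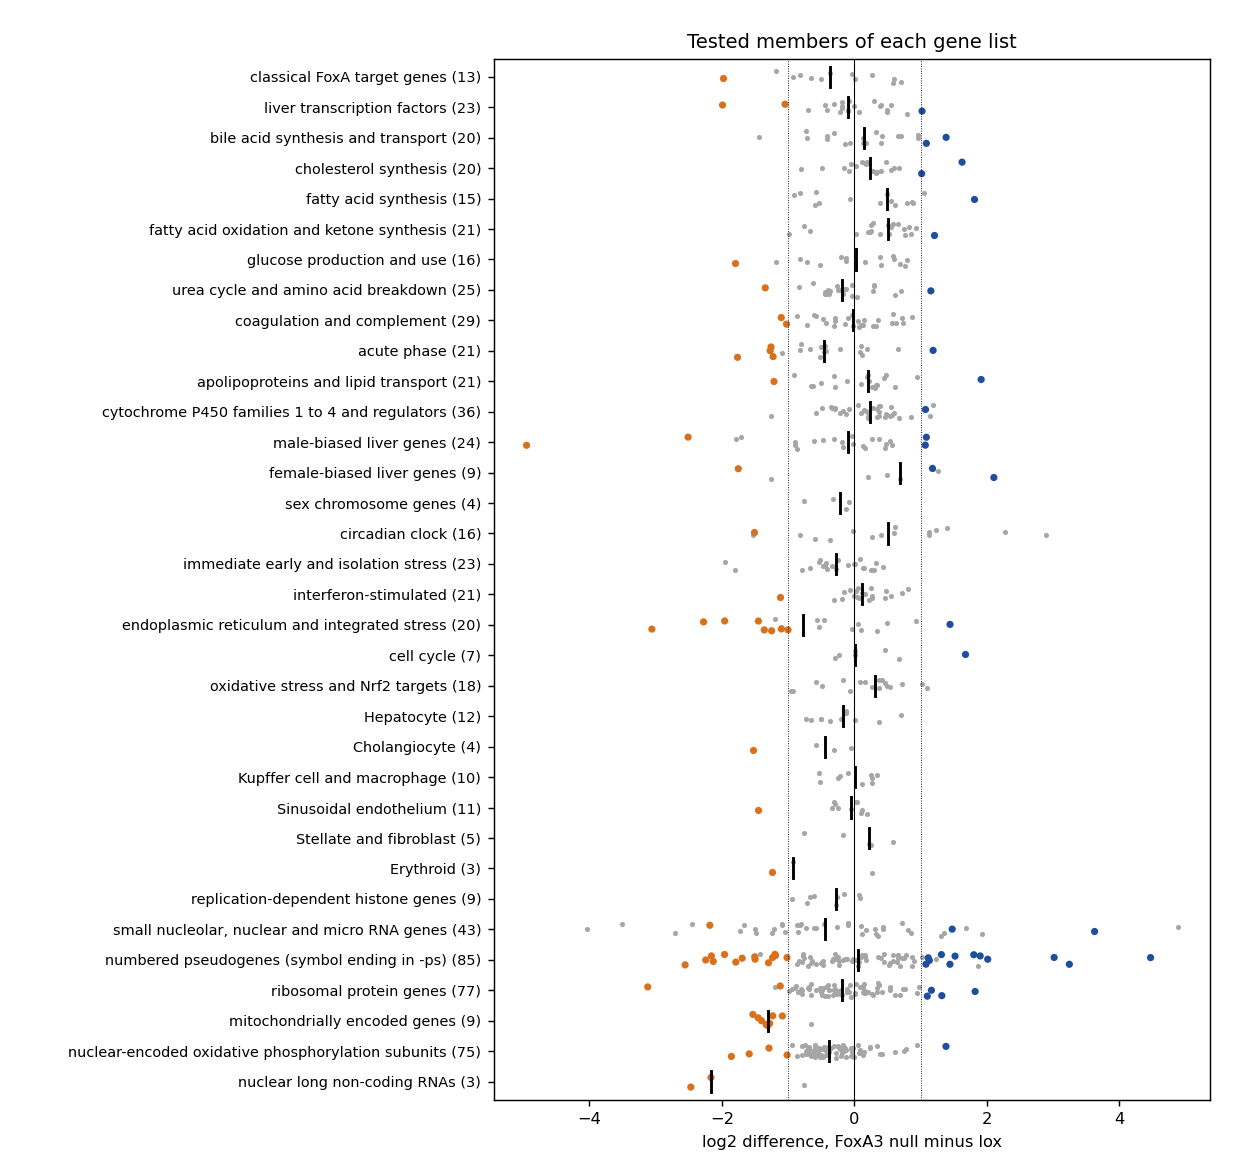
Log2 differences (FoxA3 null minus lox) of the tested members of each gene list, with the number tested in brackets, called genes in colour and the list median as a bar. The mitochondrially encoded list lies lowest among lists of at least 5 genes, with a median of -1.31.

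Pseudogenes were called in 27.3% of 619 tested, a share that includes genes reaching 1 RPKM in 1 group only. Of 77 ribosomal protein genes 4 were called higher and 2 lower (7.79%, beside 6.87% of all genes), and of 85 numbered pseudogenes 12 were called higher and 14 lower (30.6%). Rpl37a was 38, 38 and 35.5 in lox and 2.91, 4.47, 3.32 and 3.02 in FoxA3 null, a difference of -3.12 (SE 0.14, limma adjusted p 2.44e-05). Rpl36 was 41.6, 38.2 and 38.6 in lox and 71.8, 96, 135 and 107 in FoxA3 null (log2 difference 1.32, SE 0.20, limma adjusted p 0.00689), and Rpl21 was 31.2, 35.4 and 30.1 and 52.4, 75.7, 94.4 and 76.9 (log2 difference 1.16, SE 0.20, limma adjusted p 0.00939). The pseudogene Rpl36-ps2 was 0.913, 0.47 and 2.12 in lox and 33, 51.6, 61.4 and 38 in FoxA3 null (log2 difference 4.47, SE 0.30, limma adjusted p 0.000161). Rpl28-ps1 was 10.2, 12.2 and 10.1 in lox and 78.5, 108, 140.5 and 127 in FoxA3 null (log2 difference 3.24, SE 0.20, limma adjusted p 0.000122), and Rpl18-ps1 was 37.1, 41 and 37.2 and 4.78, 5.12, 7.41 and 5.79 (log2 difference -2.56, SE 0.15, limma adjusted p 0.000102). Ribosomal protein genes and their processed copies share sequence, so these values are uncertain wherever reads could be divided between copies. All of these 6 genes stayed called when any 1 library was left out, and all but Rpl36 and Rpl21 with lox replicate 3 alone, where these differed by 1.35 and 1.26 (limma adjusted p 0.174 and 0.182).

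Predicted genes included some of the furthest from lox. Gm10736 was 0, 1.14 and 0.824 in lox and 152, 163, 185 and 254 in FoxA3 null (log2 difference 6.88, SE 0.29, limma adjusted p 2.4e-05), and Gm13611 was 0, 0 and 0.519 and 37.7, 40.5, 68.7 and 53.4 (log2 difference 5.43, SE 0.25). Gm15148 was 204, 197 and 156 in lox and 0, 0, 0 and 9.1 in FoxA3 null (log2 difference -6.70, SE 0.79, limma adjusted p 0.00257), Gm4604 was 128, 129 and 115 and 1.36, 2.14, 1.61 and 1.86 (log2 difference -5.52, SE 0.13, limma adjusted p 1.36e-06), and Gm13015 was 85, 89.5 and 92.3 and 2.62, 2.71, 1.53 and 3.9 (log2 difference -4.64, SE 0.21, limma adjusted p 2.4e-05). For each of these the HNF4a control liver libraries, which carry Foxa3, lay with FoxA3 null: Gm10736 was 129.8 and 146 there, Gm13611 45.2 and 50.6, Gm15148 0 and 0, Gm4604 0.783 and 1.73 and Gm13015 0 and 0. Another 18 genes with enough signal were listed at 0 in every FoxA3 null library and 7 in every lox library, and were left out of the test. Small RNA genes were called in 3 of 43 (6.98%, beside 6.87% of all genes), and their short length makes RPKM imprecise. Mir719 was 3.96e-09, 8.59 and 16.2 in lox and 75.7, 86, 115 and 26.1 in FoxA3 null (log2 difference 3.62, SE 0.94, limma adjusted p 0.0305), lost without FoxA3 null replicate 1 or 2 or lox replicate 1 or 2 (adjusted p up to 0.0788). It overlaps Nupl1 (difference 0.80, not called). Mir686 was 739, 605 and 1465 in lox and 2358, 3141, 1826 and 2526 in FoxA3 null (log2 difference 1.48, SE 0.32, limma adjusted p 0.0179), lost without FoxA3 null replicate 2 or lox replicate 1 or 2 (adjusted p up to 0.0731), and overlaps Psmb5 (difference 0.20, not called). Mup-ps17, a copy in the major urinary protein cluster, was 1.01, 2.51 and 0 in lox and 13.1, 17.6, 21.2 and 8.96 in FoxA3 null (log2 difference 3.02, SE 0.43, limma adjusted p 0.00568).

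The labelled cell type matched its markers. All 12 hepatocyte markers were tested and none was called, beside 6.87% of all genes. Their summed level was 67000 to 68100 in lox and 57000 to 65100 in FoxA3 null. Of 12 cholangiocyte markers 8 stayed under 1 RPKM in all 7 libraries, Krt7, Krt19 and Epcam among them, and Sox9, a biliary and progenitor factor, was called lower at 7.53, 3.03 and 1.38 in lox and 0.535, 0.595, 0.428 and 0.469 in FoxA3 null (log2 difference -1.53, SE 0.37), having passed the minimum through lox alone. The Kupffer cell list summed to 10.9 to 64.7 in lox and 28.5 to 40.1 in FoxA3 null, with no gene of 10 called. The sinusoidal endothelium list summed to 52.0 to 87.3 in lox and 39.0 to 62.0 in FoxA3 null. Of 11 tested 1 was called (9.09%, beside 6.87% of all genes). The called gene was Stab1, a scavenger receptor, at 25.4, 21.6 and 19 in lox and 4.44, 5.25, 15.1 and 7.91 in FoxA3 null (log2 difference -1.45, SE 0.35, limma adjusted p 0.025). Stab1 was not called without FoxA3 null replicate 2 or 4 or lox replicate 1 or 2 (adjusted p up to 0.0915). No stellate cell marker of 5 tested was called, and of the lymphocyte and neutrophil lists no gene was high enough to be tested. Of 3 tested erythroid genes 1 was called (33.3%, beside 6.87% of all genes), in the lower direction. Alas2, the erythroid form of the first haem synthesis enzyme, was 82.6, 91.2 and 92.4 in lox and 38.2, 36.4, 43.7 and 30.9 in FoxA3 null (log2 difference -1.24, SE 0.14, limma adjusted p 0.00229). Its call was kept without any 1 library but not with lox replicate 3 alone (log2 difference -1.30). The erythroid anion exchanger Slc4a1 stayed under 1 RPKM in all 7 libraries.

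A second comparison of FoxA3-deficient with FoxA3-carrying hepatocytes is triple null against Cre alfp, in which FoxA1 and FoxA2 are deleted on both sides. Remaining transcript was not equal on the 2 sides. Foxa1 was 3.5, 3.31, 2.65 and 2.95 in the triple null and 1.4, 1.21, 1.38 and 1.18 in Cre alfp (log2 difference 0.84, SE 0.10, limma adjusted p 0.000414). Foxa2 was 0.251, 0.39, 0.281 and 0.453 against 1.2, 1.06, 1.31 and 1.01, and reached 1 RPKM in Cre alfp alone of the 2 sides. The second comparison shares no library with FoxA3 null against lox but has the same division in entries listed at 0. Of 10932 genes tested there, 1098 were called (10.0%). Of 10458 genes tested in both, 89 were called higher in both (34.6% of the 257 higher in FoxA3 null and 23.5% of the 378 higher in the triple null) and 153 lower in both (33.5% of 457 and 24.6% of 623). Opposite calls numbered 4 and 5. Among called pseudogenes 60.9% were called the same way in the second comparison, and among called protein-coding genes 22.9%. Sae1 differed by 2.04 in FoxA3 null against lox and by 2.16 in the second comparison, Timm23 by 2.16 and 1.56, Apoa4 by 1.91 and 2.23, and Ces2c by 1.96 and 3.06. Apoa4 was 122, 101, 145 and 111 in Cre alfp, which carry Foxa3, above every FoxA3 null library. Sae1, Timm23 and Ces2c lay in every Cre alfp library under every FoxA3 null library. Of the lower genes, Selenbp2 differed by -4.95 and -2.95, and Idua by -2.68 and -1.82. Selenbp2 was 2.3, 27.1, 13.9 and 5.36 in Cre alfp, which carry Foxa3, overlapping FoxA3 null and far under lox. Col27a1, a fibrillar collagen, was 21.7, 21.4 and 39.4 in lox and 5.96, 6.01, 9.12 and 5.98 in FoxA3 null and differed by -1.84 and -2.38, with 2.88, 9.82, 7.97 and 3.14 in Cre alfp. Insc, an adaptor of spindle orientation, was 14.2, 13.1 and 9.82 and 3.21, 3.16, 5.39 and 3 and differed by -1.53 and -1.87, with 3.02, 6.17, 2.31 and 1.96 in Cre alfp. For Selenbp2, Col27a1 and Insc every Cre alfp library lay under every lox library. Zbtb48, a telomere-binding zinc finger protein, was 39.8, 29.8 and 28.9 and 8.63, 9.5, 14.2 and 11 and differed by -1.52 and -1.56. The ribosomal RNA entry n-R5-8s1 differed by 1.45 and 1.84, and lost its first call without FoxA3 null replicate 2 or 4 or any 1 lox library (adjusted p up to 0.0885). The small nucleolar RNA Snora31 differed by -2.18 and -5.50, with its first call lost without lox replicate 2 (adjusted p 0.0742). It lies within Tpt1, which was called higher (1.10). The mitochondrially encoded mt-Nd6, mt-Rnr1, mt-Nd4 and mt-Rnr2 differed by -0.61, -0.62, -0.46 and -0.70 in the second comparison. None of these was called there (limma adjusted p 0.0977 to 0.204).

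Whether the FoxA3 difference itself depended on FoxA1 and FoxA2 was tested in 1 fit over the 15 hepatocyte libraries, in which 780 of 11448 genes (6.81%) were called. Slco1a1 rose by 1.09 in FoxA3 null against lox and differed by -4.25 in the triple null against Cre alfp, a gap (first minus second) of 5.33 (SE 0.97, limma adjusted p 0.00262). Sult1e1 differed by 2.10 and 6.01, a gap of -3.90 (SE 0.53, limma adjusted p 0.000279). For Saa2 the differences were -1.27 and 2.97, with a gap of -4.25 (SE 1.04, limma adjusted p 0.0149). Pfkfb1 differed by -1.79 with FoxA1 and FoxA2 intact and by 0.26 in their absence (gap -2.06, SE 0.33, limma adjusted p 0.000912). Creld2, Sdf2l1 and Manf, which were lower in FoxA3 null, differed by 1.28, 0.27 and 0.89 in the second comparison, with gaps of -3.57 (SE 0.62, limma adjusted p 0.00173), -2.23 (SE 0.55, limma adjusted p 0.0155) and -2.35 (SE 0.33, limma adjusted p 0.000367). Hsd17b6 differed by 1.76 and -0.72, a gap of 2.48 (SE 0.50, limma adjusted p 0.00505). Slc40a1, Ece1 and Cpt1a were higher in FoxA3 null and differed by 0.05, 0.02 and -0.15 in the second comparison, with called gaps. The way of deletion and the remaining Foxa1 and Foxa2 levels also differed between the arms of the second comparison. Lox replicates 1 and 2, which stand apart on clock genes, enter each gap.

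**Figure D5:**
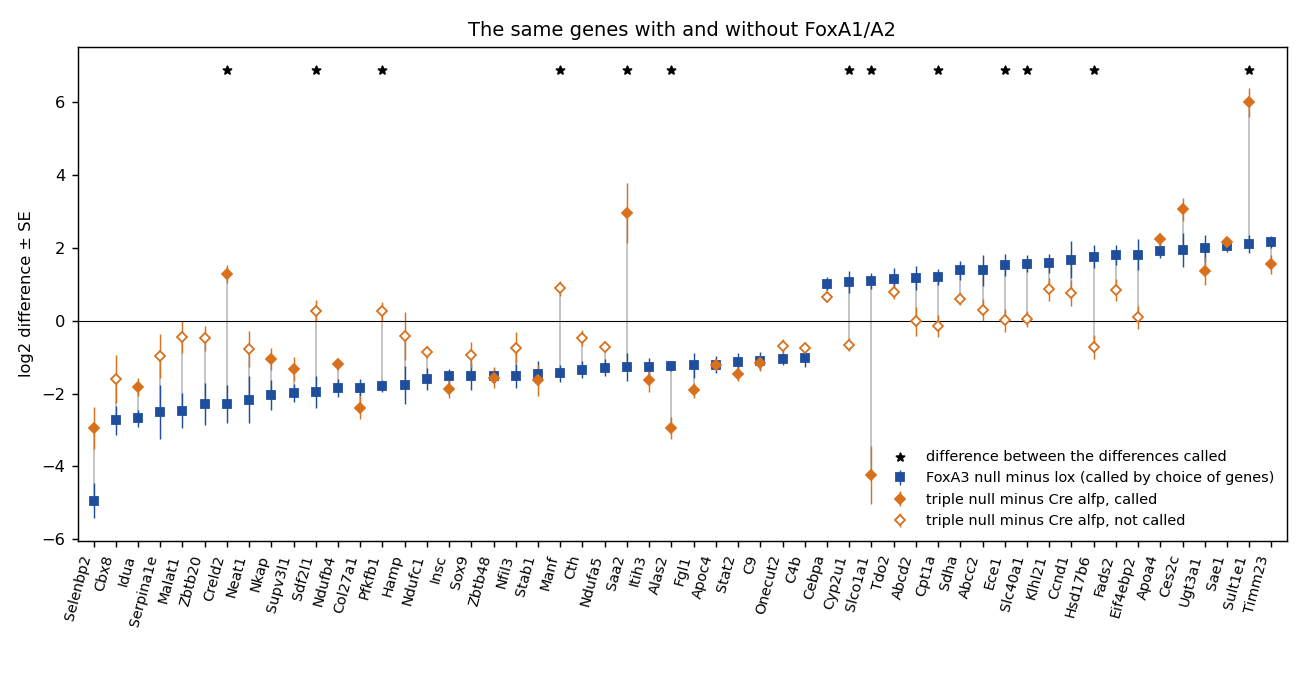
Log2 differences with SE of named called genes in FoxA3 null minus lox (squares) and triple null minus Cre alfp (diamonds, filled where called), ordered by the first. Stars mark genes with a called gap between the differences, such as Slco1a1 at 1.09 against -4.25 and Sult1e1 at 2.10 against 6.01.

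HNF4a control liver carries Foxa3 and is labelled liver, not hepatocytes, so it can be set beside these genes as a description only. Of the 739 called genes, both control liver libraries lay nearer FoxA3 null than lox in 561, nearer lox in 126, and were split in 52. Among called protein-coding genes the counts were 357, 88 and 30, and among called pseudogenes 139, 18 and 12. Zbtb20 was 1.71 and 1.7 in control liver, Timm23 16.4 and 14.4 and Apoa4 66 and 66.5, all nearer FoxA3 null. Selenbp2 was 237 and 379, Enho 29.9 and 38.2, Asns 4.62 and 4.47, Insc 14.2 and 21.9 and Alas2 92.2 and 66.6, nearer lox. Sae1 was 7.26 and 5.89 and also nearer lox. In 53 genes all 9 FoxA3-carrying libraries (lox, Cre alfp and control liver) lay above all 8 FoxA3-deficient ones, and in 228 genes all lay below. Of these, 9 were called lower in both comparisons and 33 higher in both, and most of the higher ones were pseudogenes. All were counted among the 10757 tested genes. The counts include genes that reached 1 RPKM in 1 group only, Foxa3 among them, and were not split by that, so nothing is read from the counts. Besides Foxa3 and Snora31, the lower genes included Mup-ps22, Trim30a, Pstk, Rpl9-ps6, 1110021J02Rik and Cfp, singled out after their values were seen. Among the higher ones was Aldh2, the mitochondrial aldehyde dehydrogenase, at 342, 336 and 599.6 in lox, 1479, 1229, 782 and 959.9 in FoxA3 null and 413 and 390.1 in control liver (log2 difference 1.40, SE 0.28, limma adjusted p 0.0151).

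Over the 739 called genes, the library farthest from lox was FoxA3 null replicate 1 in 65.2% and the nearest was replicate 3 in 63.3%, with median shifts of 1.64 and 1.01 on the log2 scale, and lox replicate 3 was the lox library nearest to FoxA3 null in 64.4%. Among called pseudogenes the order was weaker, at 53.8%, 56.8% and 53.3%. These shares describe the genes that the same libraries selected and were not tested.

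The neighbours of Foxa3 were listed in the RefSeq gene order. Of the 20 nearest tested genes 2 were called (10.0%), both lower (Slc1a5 and Ccdc61). Slc1a5, a glutamine transporter, was 2.31, 1.73 and 1.57 in lox and 0.0254, 0.3, 0.179 and 0.253 in FoxA3 null (log2 difference -1.27, SE 0.15, passing the minimum through lox alone), and Ccdc61 was 4.54, 6.5 and 5.17 and 0.875, 2.64, 2.25 and 0.928 (log2 difference -1.31, SE 0.27, limma adjusted p 0.0158). Sae1 and Apoc4 followed among the nearest 50, where 4 were called, and 12 were called among the nearest 100. The 12 of 100 compare with 6.87% of all genes, and the difference was not tested. These counts include calls that the filter set, Slc1a5 among them, and were not split by it, so nothing is read from them.

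Promoter letters were examined last. Windows of 250 bases before to 50 bases after each RefSeq start (GRCm38.p6) were searched for the forkhead core TGTTTAC or TGTTTGC on either strand. Of 157 windows of genes called higher 7.64% held a match, of 307 windows of genes called lower 10.7%, and of 9227 windows of all tested genes 6.85%. Only 45.9% of the genes called higher and 50.5% of those called lower had a window, against 66.7% of all tested genes. Of the 85 named genes 48 had a window, and 4 held a match before the start, Foxa1, Sdha, Serpina1e and Tdo2. The 250 bases before the start of the 3 called genes among them are shown 5′ to 3′ on the gene's strand, with the match in capitals, so that its place can be read. Tdo2 lies on the minus strand at chr3:81975729-81975978, Sdha on the minus strand at chr13:74350241-74350490, and Serpina1e on the minus strand at chr12:103956898-103957147. A match is a description of letters and not a binding site.
Tdo2: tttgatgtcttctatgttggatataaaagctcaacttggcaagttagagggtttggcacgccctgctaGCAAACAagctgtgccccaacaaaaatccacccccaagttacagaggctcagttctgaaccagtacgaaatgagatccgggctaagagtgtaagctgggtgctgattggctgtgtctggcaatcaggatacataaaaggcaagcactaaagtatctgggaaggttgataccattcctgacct
Sdha: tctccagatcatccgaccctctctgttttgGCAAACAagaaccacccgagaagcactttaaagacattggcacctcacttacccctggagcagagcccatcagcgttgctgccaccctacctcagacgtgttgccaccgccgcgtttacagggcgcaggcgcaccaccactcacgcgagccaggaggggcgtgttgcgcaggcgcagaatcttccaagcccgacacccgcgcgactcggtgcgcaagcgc
Serpina1e: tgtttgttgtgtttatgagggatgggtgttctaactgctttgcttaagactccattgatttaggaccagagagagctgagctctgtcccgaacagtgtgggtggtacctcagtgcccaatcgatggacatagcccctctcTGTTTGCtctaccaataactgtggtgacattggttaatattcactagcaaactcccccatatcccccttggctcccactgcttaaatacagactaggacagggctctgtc
The match begins 182 bases before the start in Tdo2, 220 in Sdha and 110 in Serpina1e. Tdo2 and Sdha were called higher and Serpina1e lower, as given above.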

How the data were processed

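RNA was measured by sequencing of hepatocyte libraries made with the NEB Ultra RNA kit. The authors deposited 1 matrix of RPKM values for 33773 gene symbols, per the file header, and the submitters' processing notes name mm9, SAMtools, Cufflinks 2.2.1 and DESeq2 without saying which step made the RPKM. Of its sample columns 17 were read and 13 not used. RPKM values were scaled to equal medians, genes reaching 1 RPKM in 3 or more of the 7 libraries were kept, and genes at 0 throughout one side were left out. Differences of log2(RPKM + 1) were tested with limma 3.58.1 (R 4.3.3, mean-variance trend, Benjamini-Hochberg adjustment over all tested genes) and called at an adjusted p under 0.05 with an absolute difference of at least 1. The second comparison and the gap between comparisons were fitted in the same way, over 8 and 15 libraries. The method was tested on simulated data. Absolute depth cannot be read from RPKM, so no counting intervals are given.

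The members and gene lists were chosen with earlier results of these data known, and the nuclear long non-coding RNA list after the data were seen. Named genes were the FoxA genes and Hnf4a, the 12 highest and 12 lowest called genes with a mean of at least 5 RPKM in the higher group and no overlap (predicted, pseudogene, ribosomal, small RNA and Mup symbols apart, of which the 3 highest and 3 lowest), the 6 highest and 6 lowest called the same way in the second comparison, and up to 4 called members of each list. Other genes were named to complete a list's account. Same-numbered libraries deviated from their group means with correlations of -0.0645, -0.0751 and -0.191, and other pairs with -0.169 to 0.189. Deviations within a group depend on each other and the pairs are few. These values therefore cannot decide whether replicate numbers pair the libraries. Alternatives in scaling, pseudocount, filters, libraries and model are given in the closing section. RefSeq tables (GRCm38.p6) supplied gene classes, neighbours and promoter sequence, and no RefSeq coordinate was used with the mm9 values. Values of some genes covered by these rules are not reported here, though counts include them.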

Additional observations from a re-analysis of the deposited data

Results flagged for a closer look

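In 5 of 81 groups of 4 FoxA3 null libraries, 1 library stood apart from the others by Dixon's criterion, and chance alone gives about 1 in 20. FoxA3 null replicate 3 was the high library for Foxa2 (20.1), Selenbp2 (20.2), Col27a1 (9.12) and Insc (5.39), all in median-scaled RPKM. FoxA3 null replicate 4 was the high library for Gm15148 (9.1), a gene at 0 in the other FoxA3 null libraries.

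For 13 named genes the FoxA3 difference with FoxA1 and FoxA2 intact (FoxA3 null against lox) differed by the limma interaction test from that in their absence (triple null against Cre alfp). The gaps, first minus second on the log2 scale, were positive for Slco1a1 (5.33), Hsd17b6 (2.48), Cyp2u1 (1.73), Alas2 (1.71), Ece1 (1.52), Slc40a1 (1.51) and Cpt1a (1.35). They were negative for Saa2 (-4.25), Sult1e1 (-3.90), Creld2 (-3.57), Manf (-2.35), Sdf2l1 (-2.23) and Pfkfb1 (-2.06). Alas2 differed by -1.24 in the first comparison and -2.95 in the second, and Cyp2u1 by 1.07 and -0.66. Enho (-3.87) and Asns (-3.23) reached 1 RPKM in lox alone of the 4 groups, so the filter set their gaps, which are a description. Both were too low to be tested in the second comparison: Enho was 0, 0.0268, 0.241 and 0.0648 in Cre alfp and 0, 0.0336, 0.0332 and 0.0379 in the triple null, and Asns was 0.0875, 0.314, 0.0624 and 0.39 and 0.21, 0.683, 0.209 and 0.37.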

How the results depend on the processing

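FoxA3 null against lox gave 739 calls, and between 509 and 1008 under other scalings, a pseudocount of 0.1, other filters, a fit over 15 libraries or no variance trend. A pseudocount of 5 gave 330 calls and no minimum difference 2552. Leaving out 1 library gave 388 (without lox replicate 1) to 1021 (without FoxA3 null replicate 3). With lox replicate 3 as the only lox library, chosen after seeing the data, 87 genes were called and 71 of them were among the 739. The replicate block left 124 calls, of which 121 were among the 739, and 58 of 82 called named genes lost their call, as did all 8 called mitochondrially encoded genes. The labels tie same-numbered libraries by nothing but the number. The triple null comparison gave 1000 to 1256 calls without 1 library and 1085 with the replicate block, and the gap test 636 to 891 without 1 library. No called named gene changed direction under the settings in which it was tested. Of 82, 11 kept their call under every setting, and another 7 under every setting but the filter of 1 RPKM in all 7 libraries, which left them untested. Among those 7, Foxa3, Enho, Asns and Gm13611 reached 1 RPKM in 1 group only, so the filter set their direction. Unknown depth and 3 lox libraries limit low genes most.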
